A study of Mus musculus with 56 samples.

Results

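Accessibility was described at the loci of 40 mouse genes of glycolysis and of the hypoxia response. The genes were taken from a fixed list, chosen with earlier results of these data known, and all 40 had at least 1 ATAC-seq peak. ATAC-seq measures open chromatin by the cuts of a transposase, and 56 libraries of 1000 cells each were made from 28 clones. A locus was the sum of the peaks centred within 10 kb of the start of the gene record, and 18691 of 21728 protein-coding genes had such a peak. The 40 loci held 334 of the 297361 peaks and 0.312% of all counts. Peaks within 1 kb of a transcript start held 68.6% of the counts of these loci, against 44.0% of the counts of all peaks. A locus takes only peaks near a gene start and all peaks include distant ones, so these shares do not compare the genes.

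The clones were granulocyte-monocyte progenitors (GMP) of a Tet2 fl/fl mouse, each grown from a single cell and kept immature by Hoxb8 fused to an estrogen receptor domain in 0.5 µM estradiol. Both lines of a clone were transduced with an integrase-defective lentivirus at a multiplicity of 200, carrying Cre for the Tet2 KO line and GFP for the control. All lines, controls included, therefore carried the floxed allele and Hoxb8-ER. There were 24 clones grown with SCF (stem cell factor, about 100 ng/ml, from conditioned medium) and 4 with GM-CSF at 10 ng/ml. The lines of a clone were compared as a pair, and clones were the replicates. The design text speaks of one mouse, while the study's methods state that Hoxb8-ER lines came from mice of both sexes, and which clone came from which mouse was not given in the sources used here. Age and strain were not used here.

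Glycolysis splits glucose into pyruvate. Glucose enters through transporters, is phosphorylated by hexokinase, is committed by phosphofructokinase, and leaves as lactate when lactate dehydrogenase and the monocarboxylate transporters take over the pyruvate. Under low oxygen the prolyl hydroxylases that mark Hif1a for destruction through Vhl lose activity, and Hif1a with its partner Arnt binds a short DNA motif at many of these genes. Neutrophils and activated macrophages are known for their reliance on glycolysis. Accessibility is not transcription, and the activity of Hif1a is set largely at the level of the protein.

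Total counts ranged from 39379 to 1079233 per library. The GM-CSF lines of clones 19 and 20 were the shallowest of their groups, with 114885 and 88234 counts in the controls and 40876 and 39379 in the KO lines. At that depth a locus held from 0 to 26 counts in the members given below, so values of these libraries are coarse. The share of counts on the X chromosome, relative to the median of the libraries, was 0.961 to 1.09 in SCF clones 1 to 18, 0.739 to 0.915 in SCF clones 23 to 29 and 0.714 to 0.840 in GM-CSF clones. Whether donors of different sex lie behind these sets was not tested, and the sets are compared separately beside the results they touch. Of 564 pairs of libraries within a group, 4 pairs differed by no more than counting noise at a chi-square p of 0.05, among them the GM-CSF KO lines 19 and 20. They carry labels of different clones and no library pair had identical values, so they were kept apart. Without either, 4 and 5 members were called in the comparison of cytokines among KO lines. The Tet2 locus did not separate the genotypes (log2 change 0.03 ± 0.13 SE, adjusted p = 0.927, edgeR quasi-likelihood test), and since the position of the deleted part was not given in the sources used here, this is no check of the deletion.

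The promoters of 5 members on which the results turn are printed first, from RefSeq on GRCm38.p6, 5′ to 3′. They are the 2 members that changed with Tet2 genotype and 3 of those that were higher in GM-CSF controls. The call of Ldha was the least stable of these 3. Each window runs from 250 bases before to 50 after a transcript start. Capitals mark ACGTG or GCGTG, the core of the hypoxia response motif, on either strand (CACGT and CACGC are their reverse complements). A CACGTG, the motif of the E-box, holds ACGTG on both strands.
Hif1a, chr12:73907617-73907916, + strand: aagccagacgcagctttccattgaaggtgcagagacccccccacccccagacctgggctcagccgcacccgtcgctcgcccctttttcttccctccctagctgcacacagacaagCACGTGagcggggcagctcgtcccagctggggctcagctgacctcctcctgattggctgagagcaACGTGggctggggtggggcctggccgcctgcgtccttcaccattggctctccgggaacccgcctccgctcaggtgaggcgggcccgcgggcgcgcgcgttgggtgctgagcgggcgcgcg
Slc2a1, chr4:119108495-119108794, + strand: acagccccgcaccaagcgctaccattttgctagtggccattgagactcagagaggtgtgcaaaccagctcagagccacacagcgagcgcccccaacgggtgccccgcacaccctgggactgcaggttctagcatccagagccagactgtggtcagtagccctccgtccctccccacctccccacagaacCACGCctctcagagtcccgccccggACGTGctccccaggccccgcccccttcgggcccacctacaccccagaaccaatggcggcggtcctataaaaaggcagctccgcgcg
Slc16a3, chr11:120948817-120949116, + strand: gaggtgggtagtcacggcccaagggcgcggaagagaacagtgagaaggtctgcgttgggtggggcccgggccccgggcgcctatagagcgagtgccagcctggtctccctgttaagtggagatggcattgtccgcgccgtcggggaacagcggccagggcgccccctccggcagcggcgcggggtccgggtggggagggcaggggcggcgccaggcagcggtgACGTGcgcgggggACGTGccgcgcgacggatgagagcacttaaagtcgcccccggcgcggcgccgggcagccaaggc
Eno1, chr4:150236947-150237246, + strand: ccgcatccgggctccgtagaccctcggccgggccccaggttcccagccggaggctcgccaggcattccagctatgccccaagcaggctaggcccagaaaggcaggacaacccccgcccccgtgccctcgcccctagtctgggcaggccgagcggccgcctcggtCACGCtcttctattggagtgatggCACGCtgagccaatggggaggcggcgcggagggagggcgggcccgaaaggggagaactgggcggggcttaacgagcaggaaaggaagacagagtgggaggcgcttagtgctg
Ldha, chr7:46845554-46845853, + strand: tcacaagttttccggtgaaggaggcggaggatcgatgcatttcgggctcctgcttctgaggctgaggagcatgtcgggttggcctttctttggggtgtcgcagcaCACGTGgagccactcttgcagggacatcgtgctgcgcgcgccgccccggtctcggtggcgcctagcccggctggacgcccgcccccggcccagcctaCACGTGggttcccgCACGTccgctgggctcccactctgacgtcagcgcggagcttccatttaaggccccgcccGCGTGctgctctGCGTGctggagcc

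Ldha had 2 RefSeq windows and Eno1 had 3, and 1 window of each is printed. The printed Ldha window held 7 matches, the most of the 5 printed, and 4 of them lay in its 2 CACGTG stretches. The Ldha window that is not printed held 2. The Hif1a window held 3, and the other 3 printed windows held 2 each. RefSeq windows were found for 38 of the 40 members, all but Slc2a3 and Ndrg1. ACGTG or GCGTG was present in 43 of the 56 windows of these members (76.8%) and in 14380 of all 32851 windows (43.8%). Gpi1, Vhl, Tpi1 and Eno2 held neither in their windows. Both motifs hold CG, windows were not matched for GC content, and overlapping windows of a gene were counted apart. The shares are thus no test of enrichment. A match of 5 letters describes the sequence and is not a binding site.

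Tet2 KO was compared with control in the 24 SCF clone pairs, with the clone as a block. Accessibility rose at 2 members and fell at none. Hif1a, the oxygen-regulated subunit of the hypoxia factor, rose by 0.29 ± 0.08 on the log2 scale (SE, adjusted p = 0.00785, edgeR quasi-likelihood test over all loci). Slc2a1, the glucose transporter Glut1, rose by 0.24 ± 0.07 (adjusted p = 0.0200). Of 35 members tested these are 5.71%, while 4.64% of all 10409 tested loci were higher and 1.5% were lower in the same comparison. The share of members called was thus close to that of all loci. The median change over the tested members was 0.03, and over all loci -0.01. Hk1, Eno2, Ldhb, Pdk3 and P4ha2 had too few counts to be tested. The Hk1 locus was 1 peak in an intron of Hkdc1, away from any promoter. With peaks within 10 kb of any transcript start Hk1 was tested, at 0.15 ± 0.07 (adjusted p = 0.190).

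Hif1a held 71.6 ± 14.5 CPM (counts scaled by the total of the library; SD, n = 24) in SCF controls, with a lowest value of 46.4, a median of 70.1 and a highest of 99.0. The SCF KO lines held 88.9 ± 22.3, from 30.8 over a median of 95.3 to 125.7. The ranges overlapped, and the KO line was higher in 19 of 24 pairs. Nearly the whole locus was 1 promoter peak (chr12:73907678-73907978), with 93.5% of its counts. This peak lay in an intron of the annotated gene record, 6453 bases from the start of that record and over the RefSeq start printed above.

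Slc2a1 held 88.7 ± 18.4 CPM in SCF controls, from 61.0 over a median of 85.05 to 135.5. The SCF KO lines held 111.9 ± 17.6 CPM, from 84.9 over a median of 113.4 to 145.5. The ranges overlapped here too, with the KO line higher in 20 of 24 pairs. The promoter peak (chr4:119108607-119108907), which overlaps the window printed above, carried 75.3% of the counts.

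**Figure D1:**
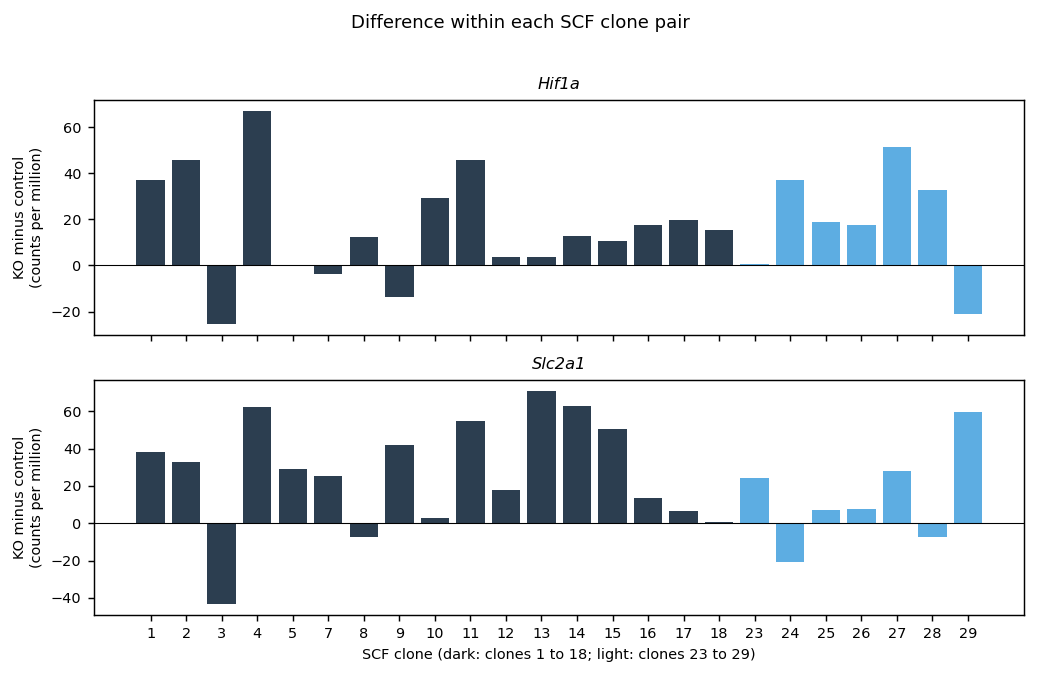
Difference of KO minus control (y axis, locus CPM) in each of the 24 SCF clone pairs (x axis, clone number), with clones 1 to 18 in dark and clones 23 to 29 in light bars. Hif1a was higher in the KO line of 19 clones and Slc2a1 in that of 20, and the bars of the 2 genes do not follow the same order of clones.

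Both changes were looked at within the sets of clones. Hif1a changed by 0.29 ± 0.09 in the 17 clones 1 to 18 (adjusted p = 0.0575) and by 0.30 ± 0.14 in the 7 clones 23 to 29 (adjusted p = 0.470), so neither set alone passed. Slc2a1 rose by 0.35 ± 0.09 in clones 1 to 18 (adjusted p = 0.00713) and was at 0.04 ± 0.13 in clones 23 to 29 (adjusted p = 0.956). The sets were compared by the log2 differences of the pairs. Unlike the fitted changes, these differences were scaled by total counts alone and every pair had the same weight. The test below therefore does not compare the fitted changes. For Slc2a1 the pair differences had a mean of 0.40 ± 0.40 (SD) in clones 1 to 18. In clones 23 to 29 their mean was 0.20 ± 0.35, and 5 of 7 pairs were higher. For Hif1a the means were 0.25 ± 0.45 and 0.34 ± 0.43. No difference between the sets was shown for Slc2a1 (two-sided exact permutation test, p = 0.281) or for Hif1a (p = 0.685), with 346104 regroupings each. The share of counts in promoter peaks was higher in the KO line of 16 of 24 SCF pairs, with a mean difference of 1.74 ± 5.94 percentage points (SD), and both genes stayed past the threshold with this share as a covariate. The Hif1a call was lost with an offset for the GC content of the peaks (0.22, adjusted p = 0.0650) and with peaks up to 50 kb (0.19, adjusted p = 0.0920). The Slc2a1 call was lost with upper-quartile scaling (0.21, adjusted p = 0.0647) and with peaks within 1 kb (0.23, adjusted p = 0.0616).

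The other members are given by role. Among the oxygen sensors, Arnt was at 0.03, the prolyl hydroxylase genes Egln1 and Egln3 at 0.14 and -0.08, and Vhl at 0.11. Slc2a3, the transporter Glut3, was at 0.15, and the lactate transporters Slc16a1 and Slc16a3 at -0.01 and -0.20. No peak of the Slc2a3 locus lay within 1 kb of a transcript start in the GENCODE basic set. The 9 tested members of upper glycolysis ranged from -0.19 at Pfkm to 0.21 at Pfkp, with a median of 0.10. Hk2, the inducible hexokinase, was at 0.15 ± 0.07 (adjusted p = 0.216) with the KO line higher in 18 of 24 pairs. Lower glycolysis ranged from -0.18 at Pgam1 to 0.18 at Pkm. None of these passed the test.

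Pkm, the pyruvate kinase gene, held 138.7 ± 34.3 CPM in SCF controls (lowest 75.4, median 140.1, highest 244.4) and 155.9 ± 27.3 in SCF KO lines (lowest 106.1, median 159.0, highest 207.4). The ranges overlapped, the change was 0.18 ± 0.06 and the adjusted p was 0.0624. Pkm passed when peaks up to 50 kb were counted (adjusted p = 0.00451) and in 3 other alternatives. Of the remaining hypoxia targets, Kdm3a, a histone demethylase gene, was at 0.21 ± 0.08 (adjusted p = 0.0975), the vascular growth factor gene Vegfa at -0.05 and Adm, the gene of adrenomedullin, at -0.20. The pyruvate dehydrogenase kinase gene Pdk1 was at 0.17.

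Single peaks were tested at an adjusted p of at most 0.01. None of the 35 member peaks tested in the KO comparison passed (edgeR), while 2.5% of the 7871 peaks did. At an unadjusted p under 0.05 there were 7 of them, and DESeq2 called 0. The promoter peaks of Hif1a (0.23 ± 0.08, adjusted p = 0.0669), Pkm (0.22 ± 0.08, 0.0694) and Slc2a1 (0.22 ± 0.08, 0.0835) had the lowest values.

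Clones were also compared with each other over both lines. Of all loci, 1.72% differed between the 24 SCF clones, and 0 of 35 members did (edgeR quasi-likelihood test, lowest adjusted p = 0.341, 2 members at an unadjusted p under 0.05).

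GM-CSF clones were compared with SCF clones among the control lines, 4 against 24. This contrast asks how the loci differ between cells derived in these cytokines. Accessibility was higher in GM-CSF at 8 members and lower at none: the lactate exporter Slc16a3, the glycolytic enzymes Eno1, Ldha, Tpi1 and Gapdh, the regulator Hif1a, the transporter Slc2a1 and the peptide hormone gene Adm. They are 21.1% of the 38 members tested, while 5.78% of 12934 loci were higher and 6.68% lower. The members were chosen with earlier results of these data known, and the other loci were not matched to them for counts. These shares are thus no test of enrichment. The median change over the tested members was 0.11, and over all loci -0.01. Without the GM-CSF library of clone 21 or 22, the deepest of the 4, there were 4 and 3 calls. With SCF clones 23 to 29 alone as the SCF group, whose share of X counts was nearest to that of the GM-CSF clones, 3 members were called, Hif1a, Eno1 and Slc16a3. Against SCF clones 1 to 18 all 8 were called. These SCF groups held 7 and 17 clones, so they also differ in size. The GM-CSF clones are all from set 19 to 22, so clone set and cytokine cannot be told apart.

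**Figure D2:**
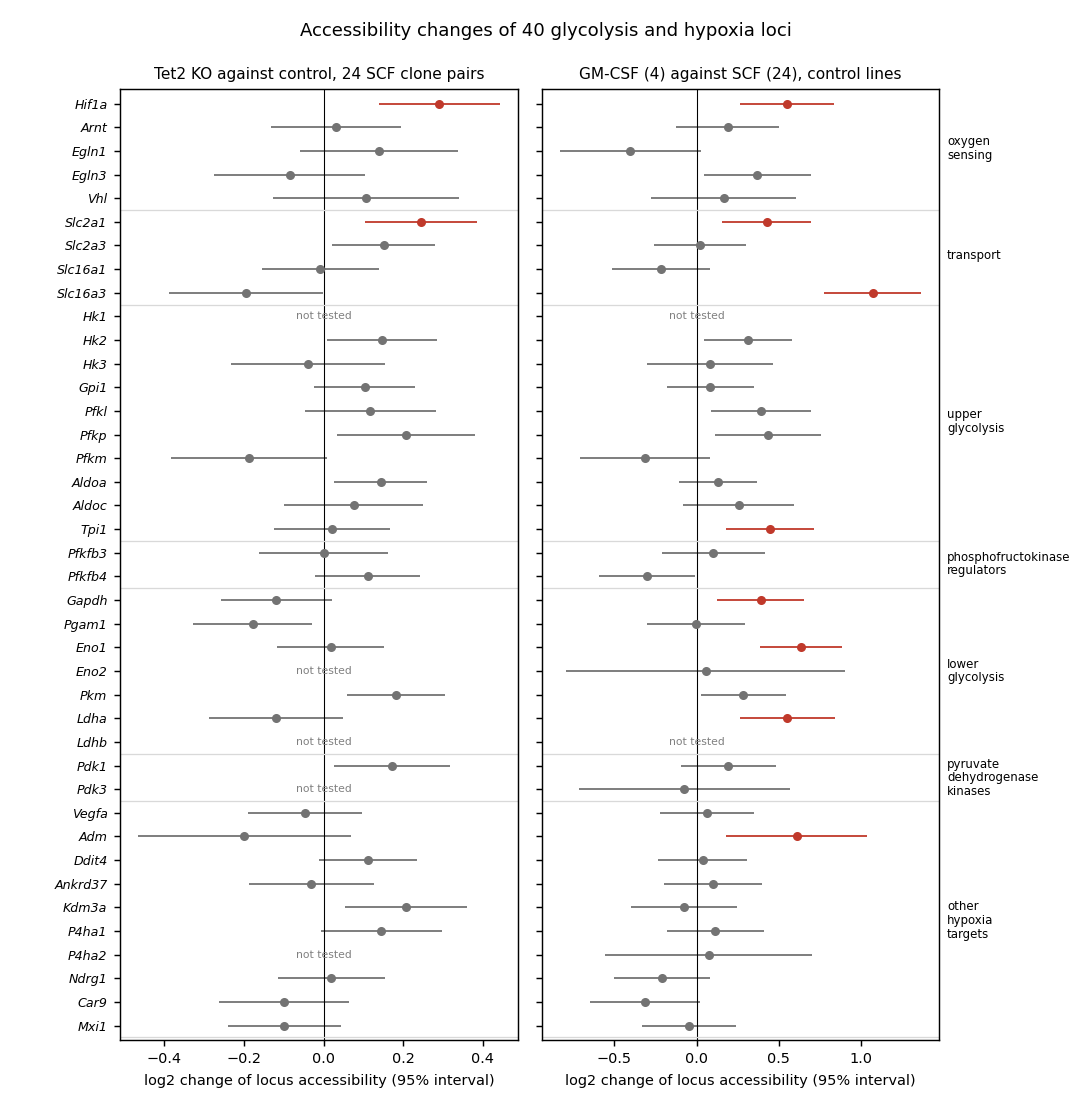
Change of locus accessibility on the log2 scale (x axis, with 95% intervals) for the 40 members (y axis, by role), for Tet2 KO against control in SCF clones (left) and GM-CSF against SCF in control lines (right). Red points passed an adjusted p of 0.05, 2 on the left and 8 on the right, and all 10 lie above 0.

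Slc16a3, which exports lactate, showed the largest change, 1.07 ± 0.15 (adjusted p = 6.29e-09). The 4 GM-CSF controls held 87.0, 147.3, 125.1 and 105.6 CPM in clones 19, 20, 21 and 22, while the SCF controls ran from 19.6 over a median of 53.3 to 77.2. The groups did not overlap. The change was 0.91 ± 0.17 against SCF clones 23 to 29 (adjusted p = 5.07e-05). The peaks were spread over the locus: a peak in an intron at 555 bases from the start (chr11:120948885-120949185), over the promoter window printed above, rose by 1.34 ± 0.34 (adjusted p = 0.00153), from 10.5 ± 5.2 to 25.3 ± 2.6 CPM. The peak with most counts (chr11:120950859-120951159), in an intron, held 18.9 CPM in SCF controls and 27.6 in GM-CSF controls. Peaks shared with the neighbour Ccdc57 made up 23.8% of the locus.

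Eno1, an enolase gene of lower glycolysis, rose by 0.64 ± 0.13 (adjusted p = 7.18e-05). The GM-CSF controls held 148.0, 147.3, 185.9 and 160.4 CPM in clones 19 to 22. The SCF controls ran from 72.4 over a median of 114.9 to 163.3, and only 1 of 24 reached the lowest GM-CSF value. The promoter peak (chr4:150236977-150237277), in an untranslated exon, rose by 0.64 ± 0.16 (adjusted p = 0.000845). An intron peak 3427 bases from the start (chr4:150239998-150240298) rose by 0.95 ± 0.27 (adjusted p = 0.00545).

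Ldha, which reduces pyruvate to lactate, rose by 0.55 ± 0.15 (adjusted p = 0.00447). The GM-CSF controls held 95.7, 124.7, 84.7 and 112.1 CPM in clones 19 to 22, against a lowest of 28.9, a median of 68.4 and a highest of 99.2 in SCF controls. All 4 GM-CSF values were above the SCF median, and 3 of 24 SCF controls reached the lowest of them. Its peak with most counts (chr7:46845652-46845952) overlaps the printed window with 7 matches, and changed by 0.65 ± 0.23 (adjusted p = 0.0286), short of the threshold for peaks. The call of the locus was lost with peaks up to 50 kb (0.12, adjusted p = 0.473), without clone 22 (0.43, adjusted p = 0.250) and against SCF clones 23 to 29 (0.48, adjusted p = 0.0632).

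Hif1a rose by 0.55 ± 0.15 (adjusted p = 0.00396), with 104.5, 158.7, 101.2 and 101.7 CPM in the GM-CSF controls of clones 19 to 22. All were above the highest of the 24 SCF controls, so the groups did not overlap. Its promoter peak rose by 0.64 ± 0.16 (adjusted p = 0.000842). Slc2a1 rose by 0.43 ± 0.14 (adjusted p = 0.0237), with 95.7, 102.0, 127.0 and 122.6 CPM in clones 19 to 22, all within the range of the SCF controls. Without clone 22 the change was 0.42 (adjusted p = 0.201), and against SCF clones 23 to 29 it was 0.27 ± 0.16 (adjusted p = 0.327). Slc2a1 was called in 10 of 16 alternatives, and not with DESeq2.

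Tpi1, the triose phosphate isomerase gene, rose by 0.45 ± 0.14 (adjusted p = 0.0150). Its GM-CSF controls held 113.2, 79.3, 130.7 and 122.6 CPM in clones 19 to 22, and its SCF controls 40.9 to 112.8 around a median of 88.2. Of the counts of this locus 98.7% belonged also to the locus of Spsb2, and within 1 kb of the start the change was 0.03 (adjusted p = 0.963). Tpi1 was called in 10 of 16 alternatives, and not with DESeq2. Gapdh rose by 0.39 ± 0.13 (adjusted p = 0.0364), with 226.3, 90.7, 145.4 and 125.2 CPM in clones 19 to 22, and the SCF controls ran from 79.3 over a median of 107.8 to 185.7. Without clone 19 its change was 0.28 (adjusted p = 0.208). Gapdh was called in 8 of 16 alternatives, and not with DESeq2, without clone 21 or without clone 22. Adm rose by 0.61 ± 0.22 (adjusted p = 0.0486), with 43.5, 34.0, 51.5 and 45.6 CPM against 16.1 to 60.8 and a median of 32.3 in SCF controls. This call was lost in 12 of 15 alternatives, and 42.4% of the counts were shared with Sbf2.

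**Figure D3:**
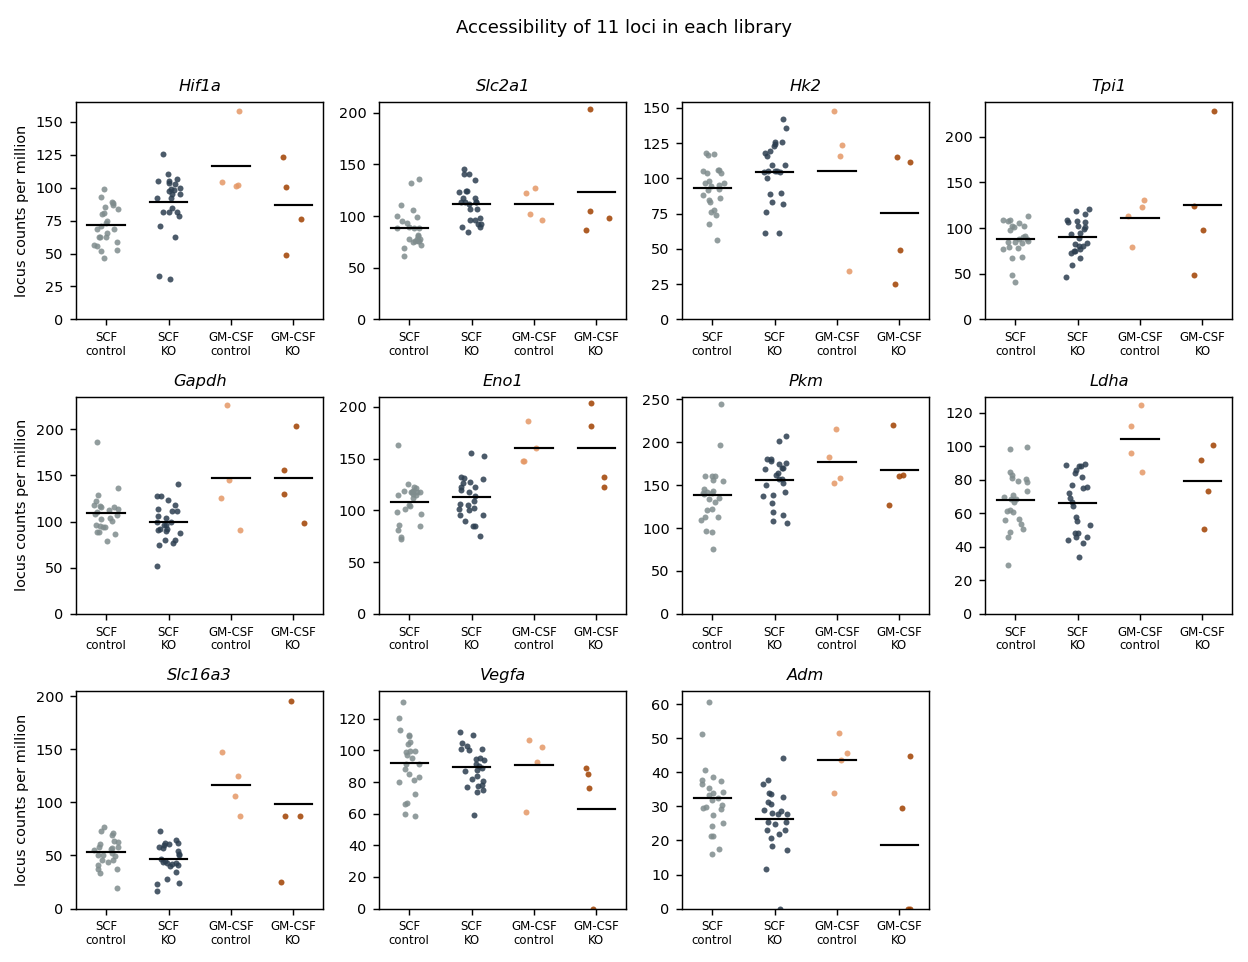
Locus CPM (y axis) of 11 members in every library of the 4 groups (x axis, 24, 24, 4 and 4 libraries), with 1 point a library and a line at the group mean. The GM-CSF controls of Slc16a3 (87.0 to 147.3) and Hif1a (101.2 to 158.7) lie above all SCF controls, and the Slc16a3 values of the GM-CSF KO lines run from 25.4 to 195.7.

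Hk2 was at 0.31 ± 0.14 (adjusted p = 0.125) by cytokine, with 148.0, 34.0, 115.9 and 123.9 CPM in clones 19 to 22, the second of them from 3 counts, and 56.1 to 117.8 CPM in SCF controls. Pkm was at 0.28 ± 0.13 (adjusted p = 0.152), with 182.8, 215.3, 152.8 and 157.8 CPM, all above the SCF median of 140.1. Vegfa was at 0.06 ± 0.15 (adjusted p = 0.837), with 60.9, 102.0, 106.7 and 92.6 CPM against a median of 93.5 in SCF controls. Its 95% interval ran from -0.22 to 0.35.

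The lowest values by cytokine were those of Egln1 (-0.40), Car9, a carbonic anhydrase gene (-0.31), Pfkm, the muscle phosphofructokinase gene (-0.31), and the phosphofructokinase regulator Pfkfb4 (-0.30), and none passed. The Pfkm locus shared all its peaks with Senp1, and 81.4% of the counts of Car9 and 86.5% of those of Pfkfb4 were shared with Arhgef39 and Ucn2. Pfkp (0.43) and Pfkl (0.39), the platelet and liver phosphofructokinase genes, had adjusted p = 0.0667 and 0.0826. Among the other members of the hypoxia response the changes were between -0.31 and 0.61, with a median of 0.05, and only Adm passed.

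Counting only peaks from 1 to 10 kb from the start, 7 of 28 tested members were higher, while 6.92% of loci were. Pfkp (0.81 ± 0.25, adjusted p = 0.0136) and Pfkl (0.79 ± 0.26, adjusted p = 0.0260) were among them. Slc2a1 (0.67, adjusted p = 0.0687), Adm (0.59, adjusted p = 0.0595) and Gapdh (0.32, adjusted p = 0.448) did not pass there, beside 0.43, 0.61 and 0.39 for their whole loci. Within 1 kb, 4 of 30 tested members were higher (background 4.21%) and 1 was lower (background 5.86%). The higher ones were Slc16a3, Eno1, Gapdh and Aldoc, and the lower one was Slc2a3 (-2.43 ± 0.51, adjusted p = 0.000125). No Slc2a3 peak in this window was within 1 kb of a transcript start in the GENCODE basic set, the only transcripts used here.

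Of 55 member peaks tested by cytokine, 5 rose and 1 fell, while 4.8% of 13171 peaks rose and 9.88% fell. Beside the peaks of Hif1a, Eno1 and Slc16a3 given above, an intron peak of Pfkp (chr13:6647152-6647452, 1475 bases from the start) rose by 1.03 ± 0.31 (adjusted p = 0.00756). It held 14.1 ± 6.6 CPM in SCF controls and 28.8 ± 17.1 in GM-CSF controls, while the promoter peak of Pfkp held 33.9 and 32.7 CPM. The peak that fell lay in an intron of Slc2a3 (chr6:122801354-122801654), 136 bases from the start of the gene record, and went from 18.7 ± 7.4 to 4.5 ± 5.1 CPM (-2.37 ± 0.51, adjusted p = 0.000107), with 5 counts in all 4 GM-CSF controls. The whole Slc2a3 locus was at 0.02 by cytokine, and 76.7% of its counts lay in 1 peak at -9423 bases that also belonged to the locus of Foxj2. With peaks within 10 kb of any transcript start, Slc2a3 was at -0.47 ± 0.38 by cytokine (adjusted p = 0.479). None of the 5 peaks that rose was called with SCF clones 23 to 29 alone as the SCF group.

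**Figure D4:**
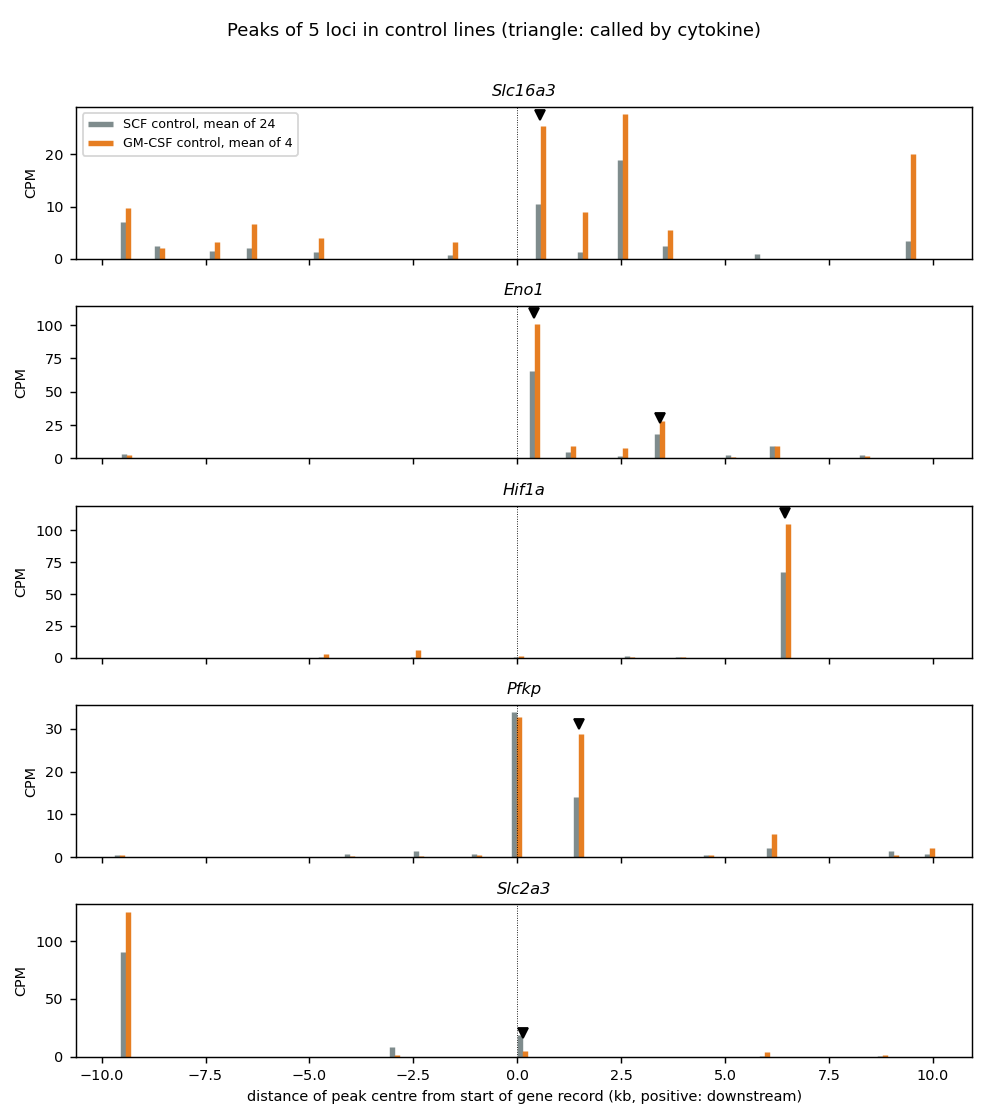
Mean CPM (y axis) of each peak of 5 loci in SCF controls (grey, n = 24) and GM-CSF controls (orange, n = 4), by distance from the start of the gene record (x axis, kb), with a triangle at the 6 peaks that passed. The Pfkp intron peak went from 14.1 to 28.8 CPM beside a promoter peak at 33.9 and 32.7, and the Slc2a3 peak near the start from 18.7 to 4.5.

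Among the KO lines, GM-CSF against SCF gave 4 members higher and none lower of 36 tested, while 4.23% of 11379 loci were higher and 5.61% lower. They were Slc16a3 (0.95 ± 0.20, adjusted p = 0.000201), Gapdh (0.58 ± 0.15, adjusted p = 0.00466), Eno1 (0.54 ± 0.15, adjusted p = 0.00606) and Ldha (0.53 ± 0.18, adjusted p = 0.0452). Slc2a1 was at -0.05 ± 0.17 and Hif1a at 0.29 ± 0.17, and neither passed. The GM-CSF KO lines of clones 19 to 22 held 195.7, 25.4, 87.4 and 86.8 CPM of Slc16a3, of which the first 2 rest on 8 counts and 1 count. Without clone 21 only Slc16a3 was called. The Ldha call among KO lines was lost in 8 of 14 alternatives, among them DESeq2 (0.49, adjusted p = 0.240), peaks up to 50 kb (0.16, adjusted p = 0.495) and leaving out clone 22 (0.42, adjusted p = 0.400).

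In the 4 GM-CSF clone pairs no locus of 12734 was called between KO and control (0% of loci, edgeR), with 687 loci and 1 member at an unadjusted p under 0.05, and DESeq2 called 0 members. This comparison and the next came from 1 fit of all 56 libraries, so their spread was shared with the SCF clones. A fit of the GM-CSF pairs alone also called 0 members. Slc2a1 was at -0.24 ± 0.20 and Hif1a at 0.06 ± 0.20. The difference of the KO effect between GM-CSF and SCF clones was also called at no locus (0% of 12734, edgeR), with 535 loci and 1 member at an unadjusted p under 0.05, and at 0 members by DESeq2. For Slc2a1 it was -0.50 ± 0.21 (adjusted p = 0.998) and for Hif1a -0.25 ± 0.21 (adjusted p = 0.998). A difference between cytokines in the effect of Tet2 KO was thus not shown with 4 GM-CSF pairs at these depths. Whether depth or the number of pairs limited this was not tested.

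Other genes of these pathways were counted beside the members. With Tet2 KO in SCF clones, 2 of 17 tested genes of other glycolysis were higher, Mpc2, a subunit of the mitochondrial pyruvate carrier (0.34), and Pdp1, a pyruvate dehydrogenase phosphatase gene (0.34). Of 25 tested genes of the other hypoxia response list 3 were higher: the mitophagy receptor gene Bnip3 (0.40), Vegfb (0.24) and Narf (0.22). Of 20 tested genes of pyruvate dehydrogenase and the citrate cycle 4 were higher, Pdhb (0.35), Idh3g (0.34), Fh1 (0.31) and Mdh2 (0.23), and of 7 genes of the pentose phosphate pathway none. No gene of these lists was lower. Over all loci in this comparison 4.64% were higher and 1.5% lower. The list medians were 0.02, 0.03, -0.01 and 0.02, and -0.01 over all loci.

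By cytokine in control lines, none of 20 tested genes of other glycolysis and none of 21 of the citrate cycle list passed. In the other hypoxia response list, 3 of 29 were higher, Hif3a (1.24), Stc2 (1.025) and the lipid droplet gene Plin2 (0.98), and 1 was lower, the repressor gene Bhlhe41 (-1.16). The transketolase gene Tkt (0.60) was the 1 of 7 pentose phosphate genes that was higher. The list medians were -0.09 for other glycolysis, 0.09 for the citrate cycle, 0.13 for hypoxia and 0.37 for pentose phosphate.

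Markers of cell types moved with cytokine in the same lines, and their part in the results above was not tested. In bulk libraries a change in the share of cells of a type and a change per cell cannot be told apart. Over all loci in this comparison 5.78% were higher and 6.68% lower. Of 8 tested neutrophil markers 4 were higher in GM-CSF controls, and the summed level of the 10 listed ran from 356.9 to 513.8 CPM against 227.5 to 364.9 in SCF controls. Of 6 tested stem and early progenitor markers 5 were lower, with sums of 118.7 to 204.0 CPM against 261.7 to 515.3. Of 10 monocyte and macrophage markers 1 was higher and 2 were lower, with sums of 559.4 to 647.8 CPM against 502.3 to 840.6. Among 12 GMP markers, 3 were higher and 5 lower, with sums of 657.3 to 868.7 CPM against 740.4 to 1072. Of mast cell and basophil markers 3 of 4 were lower, and of lymphoid ones 2 of 5 and of erythroid and megakaryocyte ones 1 of 5. Gata2 (-1.64) is in both the stem and the mast cell list and is counted as lower in each. No listed marker was at 0 in a group of controls. With Tet2 KO in SCF clones, 1 marker of these lists passed, Cebpa of the GMP list (0.19, adjusted p = 0.0411).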

How the data were processed

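Bulk ATAC-seq of 56 libraries was used. The deposited values are counts, not normalized by the authors, over 297361 peaks of 301 bp. The submitters' processing notes name mm10, Bowtie2, SAMtools and Picard. Their versions, and how duplicates were treated, were not found in the sources used here. Titles of clones 20 to 22 name SCF, but their treatment field gives GM-CSF, which was used. Loci were summed with GENCODE vM21 basic (GRCm38) and tested with edgeR 4.0.16 in R 4.3.3 (filterByExpr with a minimum count of 10, TMM, quasi-likelihood test, Benjamini-Hochberg over all loci). KO comparisons had the clone as a block. Calls had an adjusted p under 0.05 for loci and of at most 0.01 for peaks. CPM used total counts, and locus counts share peaks between neighbours.

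Pairs come from the labels, since both lines of a pair are one clone. The deviations of sister lines correlated from -0.03 to 0.25 (median 0.07) in SCF clones. The members and lists were chosen with earlier results of these data known. Values by library were given for the members past the threshold in the KO comparison in SCF clones or in the cytokine comparison of controls, and for Hif1a, Slc2a1, Hk2, Pkm, Ldha and Vegfa. Single peaks past the threshold were named, with the peak with most counts of members described, and further members were named after their values were seen. DESeq2 1.42.0 was an alternative, on peaks with at least 200 (KO) or 100 (cytokine) counts. On simulated counts with the KO design, 95.9% of changes of 0.5 on the log2 scale were recovered over 10290 loci, with 8.29% false calls, and 26.3% in the cytokine design over 12656 loci, with 69.4% of changes of 1. Intervals cover counting and spread between clones.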

Additional observations from a re-analysis of the deposited data

Results flagged for a closer look

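Among the GM-CSF groups of 4 libraries, 10 of 80 combinations of member and group held a library far from the other 3. Chance flags about 1 in 20 groups where the 4 values have equal spread, which libraries of such unequal depth do not, and the rate at these depths was not computed. All 10 were libraries of clones 19 or 20, the shallowest, and each rested on 0 to 15 counts.

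The GM-CSF control line of clone 20 held 158.7 CPM of Hif1a (14 counts), and the other 3 lines 101.2 to 104.5. The GM-CSF control line of clone 19 held 130.6 CPM of Pfkfb4 (15 counts), and the other 3 lines 83.5 to 90.7. The GM-CSF control line of clone 19 held 52.2 CPM of Pgam1 (6 counts), and the other 3 lines 90.7 to 95.7. The GM-CSF control line of clone 20 held 102.0 CPM of Kdm3a (9 counts), and the other 3 lines 69.6 to 73.0. The GM-CSF KO line of clone 19 held 97.9 CPM of Egln1 (4 counts), and the other 3 lines 25.4 to 29.9. The GM-CSF KO line of clone 20 held 203.2 CPM of Slc2a1 (8 counts), and the other 3 lines 86.8 to 104.5. The GM-CSF KO line of clone 19 held 0 CPM of Pfkfb3 (0 counts), and the other 3 lines 50.8 to 59.4. The GM-CSF KO line of clone 20 held 152.4 CPM of Aldoc (6 counts), and the other 3 lines 44.8 to 52.5. The GM-CSF KO line of clone 19 held 0 CPM of Vegfa (0 counts), and the other 3 lines 76.2 to 89.1. The GM-CSF KO line of clone 20 held 101.6 CPM of Ddit4 (4 counts), and the other 3 lines 145.0 to 150.7.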

How the results depend on the processing

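The number of members called moved by more than 1.5 times under these settings. With Tet2 KO in SCF clones, 2 were higher, and 0 with peaks within 1 kb, 1 with clones 1 to 18, 0 with clones 23 to 29 and 1 with upper-quartile scaling. Hif1a was not tested within 1 kb, since its promoter peak lay 6453 bases from the start of the record. By cytokine in controls, 8 were higher, and 4 within 1 kb, 4 with DESeq2 and 3 with SCF clones 23 to 29, while leaving out 1 GM-CSF control gave 3 to 9. Hif1a, Ldha and Adm were not tested within 1 kb by cytokine. Lower calls went from 0 to 1 within 1 kb, 2 within 50 kb and 1 with any transcript start. In KO lines, 4 were higher, and 1 within 1 kb and 2 from 1 to 10 kb, with 1 to 5 on leaving out a GM-CSF KO line, and lower calls went from 0 to 1 within 1 kb and 2 within 50 kb. Ldha and Slc16a3 were not tested within 1 kb in KO lines. Single peaks higher by cytokine went from 5 to 0 and lower from 1 to 2 with SCF clones 23 to 29. Leaving out the replicate block kept 2 members with Tet2 KO and 0 in GM-CSF pairs, and changed no call. Without clone 13, or without GM-CSF clones 19 and 20 together, both chosen after seeing the data, 3, 7 and 5 members were called in the KO comparison and the cytokine comparisons of controls and KO lines. Some changes that had not passed turned sign. With Tet2 KO these were Tpi1 (0.02; within 1 kb -0.088, clones 23 to 29 -0.039, promoter share covariate -0.002, upper-quartile -0.015), Eno1 (0.02; 1 to 10 kb -0.325, clones 23 to 29 -0.074, upper-quartile -0.018) and Vegfa (-0.05; 50 kb 0.018, clones 1 to 18 0.06). By cytokine in controls, Gapdh, which had passed, went to -0.016 within 50 kb, and Vegfa to -0.08 with SCF clones 23 to 29, to between -0.033 and 0.12 on leaving out 1 library and to 0 from 1 to 10 kb. In KO lines, Slc2a1 went to 0.578 from 1 to 10 kb and to between -0.126 and 0.085 on leaving out 1 library, Hk2 to -0.105 within 1 kb, -0.017 with DESeq2, -0.003 without a filter and between -0.071 (without clone 21) and 0.09 on leaving out 1 library, Gapdh to -0.1 within 50 kb, Pkm to -0.058 from 1 to 10 kb and -0.097 within 50 kb, Vegfa to 0.122 from 1 to 10 kb, 0.168 within 50 kb and 0.012 without clones 19 and 20, and Adm to between -0.054 (without clone 21) and 0.515 on leaving out 1 library. The causes were not tested. Clones 19 and 20 limit the GM-CSF groups in depth.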
